A study of Mus musculus with 6 samples.

Results

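Lysophosphatidic acid (LPA) and sphingosine-1-phosphate (S1P) are lipid mediators, and the genes described here break them down, make them or receive them. They comprise 10 genes, namely the lipid phosphate phosphatases Plpp1, Plpp2 and Plpp3, autotaxin (Enpp2), the LPA receptors Lpar1, Lpar2, Lpar3 and Lpar4, and the S1P receptors S1pr2 and S1pr3. Of these, 9 were measured among 19571 gene rows of the array, and Enpp2 was not analysed here. The genes were chosen by name, with the difference between Tmem161a-KO and WT cells already known from these same arrays, in particular the low value of Plpp3. Their values in that comparison are therefore given as a description, without p-values. Where these genes are said below to be called or not called, or are given an interval, this rests on that same comparison. It is not separate support.

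MC3T3-e1 cells are mouse cells of the osteoblast lineage, established from calvaria. Tmem161a-KO cells were derived from it with CRISPR/Cas9 and limited dilution, so that they represent 1 edited line, and WT cells were the unedited line. RNA from 3 Tmem161a-KO samples and 3 WT samples was read on Clariom S mouse arrays, 1 array for each sample. No treatment is named for either group. Whether the samples of a group were separate cultures is not stated, and the labels speak of labelling in duplicate, so the p-values rest on a spread that may be technical. An effect of Tmem161a and a property of the single edited line cannot be told apart in this design, and neither can fewer expressing cells and less RNA per cell.

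LPA is made outside cells by autotaxin, which cleaves lysophosphatidylcholine, and S1P is made inside cells by sphingosine kinases. The lipid phosphate phosphatases are membrane enzymes with an active site that faces outward, and they remove the phosphate of LPA, S1P and related lipids, which ends the signal at the receptors. The receptors are coupled to G proteins, through which they act on RhoA, calcium, cyclic AMP and ERK. In osteoblasts both lipids are known to affect growth, migration and differentiation.

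The values are intensities normalized by the authors on a linear scale, and differences are given as log2 fold changes of Tmem161a-KO over WT with the standard error from limma, fitted over all gene rows. A gene was called higher or lower where the adjusted p of that fit was under 0.05. Over all gene rows, 5.73% were called higher (1122) and 4.17% lower (817), together 9.91%. With each array centred on its median, the counts were 1619 higher and 614 lower. The median intensity of an array was 204 to 208 in Tmem161a-KO cells and 214 to 215 in WT cells, and the upper quartiles were 1439 to 1455 in Tmem161a-KO cells and 1379 to 1393 in WT cells. Rows of olfactory receptor genes gave the background level, an intensity of 100.1, which is the 95th percentile of 1091 such rows. Tmem161a itself, at 967 ± 32.7 in Tmem161a-KO cells and 1148 ± 84.3 in WT cells (SD, n = 3 each), was not called (log2 fold change -0.25, adjusted p = 0.192 from limma), and its transcript level need not follow from small deletions. The labelled cell type was checked on 8 measured markers of the osteoblast lineage. Of these, Col1a1, Col1a2, Sparc, Postn, Sp7 and Bglap were above background in both groups, whereas Alpl and Ibsp were not. Sp7, a transcription factor of the osteoblast lineage, was the only 1 called, at 849 ± 154 in Tmem161a-KO cells and 174 ± 12.1 in WT cells (SD, n = 3 each), higher by 2.27 on the log2 scale (limma, adjusted p = 3.68e-08). The summed level of the 8 markers was 811197 to 831605 on the Tmem161a-KO arrays and 818904 to 839507 on the WT arrays, a sum made up mostly of Sparc, Col1a1, Col1a2 and Postn. Of the markers of other cell types, all 4 measured ones of macrophages and all 4 of endothelial cells were below background. Of 4 adipocyte markers only Cebpa, and of 3 skeletal muscle markers only Myog, was above background, and none of these was called. All 3 cartilage markers were above background, with Col2a1 called lower (log2 fold change -0.82) and Acan (-0.45) and Sox9 (0.41) not called. Of 4 epithelial markers, 3 were above background in a group. Krt18 was called lower (-0.40), but it was below background in Tmem161a-KO cells, so the size of its fall is uncertain. The summed level of the 4 was 481 to 555 on the Tmem161a-KO arrays and 575 to 714 on the WT arrays. The part of these cell types in the results was not tested.

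Among the 9 measured genes, Plpp3 and Plpp1 were called lower, Lpar4 was called higher and 6 were not called. The share called was 33.3%, against 9.91% of all gene rows and 14.3% of those above background in either group. The groups did not overlap in 4 of the 9 genes (Plpp1, Plpp2, Plpp3 and Lpar4), where 28.9% of all gene rows showed no overlap. These counts describe a choice of genes made on this comparison, and nothing is read from them. The median log2 fold change of the 9 genes was 0.02, with a range of -2.69 to 0.78, against a median of -0.01 over all gene rows.

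**Figure D1:**
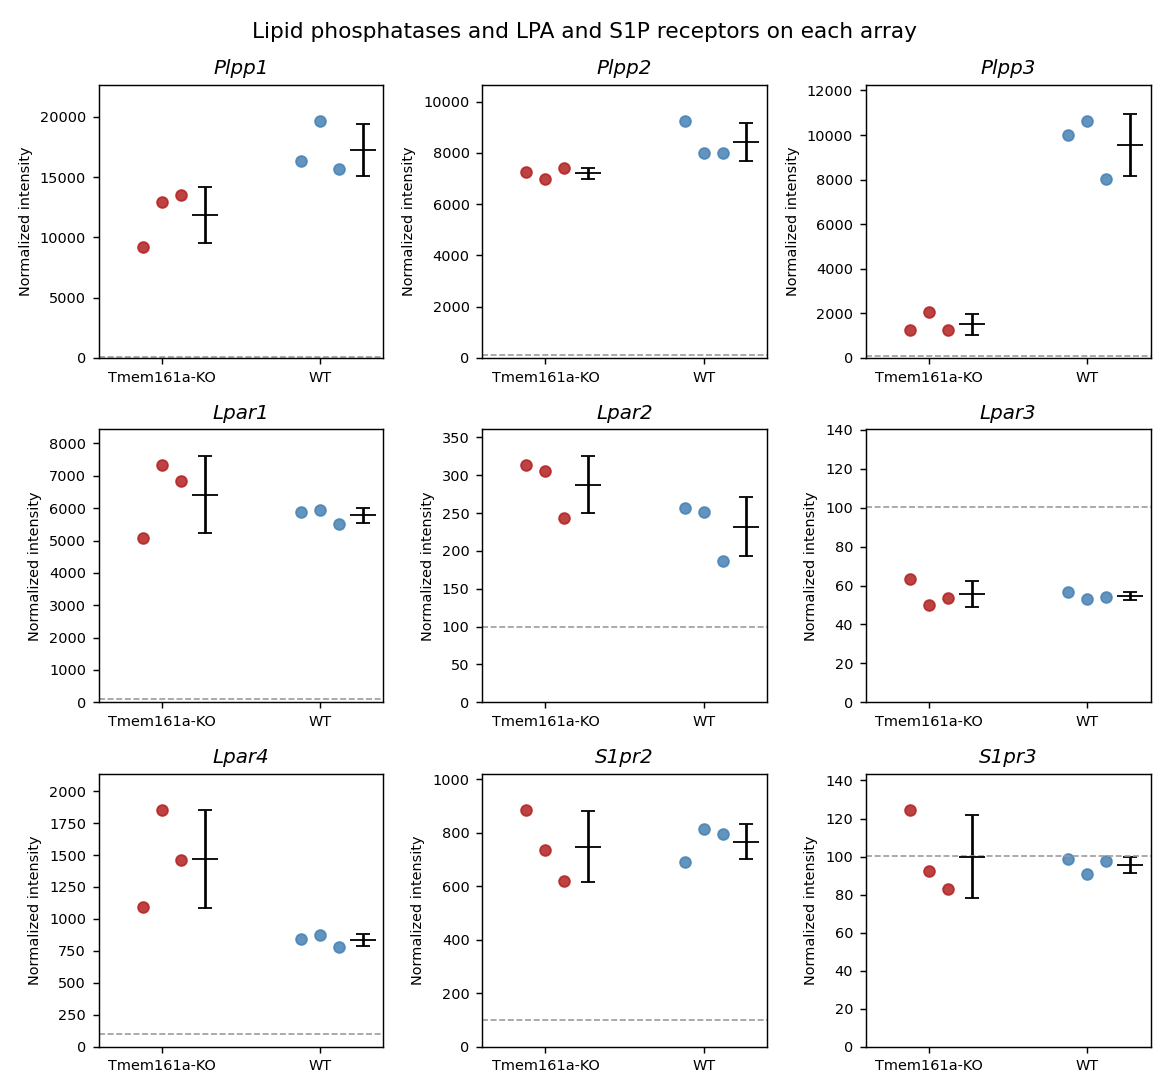
Normalized intensity (linear axis from 0, a different range in each panel) of the 9 measured genes in 3 Tmem161a-KO arrays (left) and 3 WT arrays (right). Points are arrays, black bars are mean ± SD and the dashed line is the background level of 100.1. Plpp3 lay between 1233 and 2054 in Tmem161a-KO cells and between 8016 and 10650 in WT cells.

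Plpp3, the phosphatase that is also known in mice to be needed for early vascular development, had the lowest log2 fold change of these genes. Its intensity was 1233, 2054 and 1256 on the Tmem161a-KO arrays, and 9991, 10650 and 8016 on the WT arrays. The highest Tmem161a-KO array was thus far below the lowest WT array, and Tmem161a-KO replicate 2 stood above the other Tmem161a-KO arrays. The mean was 1514 ± 468 in Tmem161a-KO cells and 9552 ± 1371 in WT cells (SD, n = 3 each). This was a log2 fold change of -2.69 (standard error 0.18), that is, 6.45-fold lower in Tmem161a-KO cells. Of all 19571 gene rows, 9 had a lower log2 fold change. Plpp3 remained well above background in Tmem161a-KO cells, so its transcript was still measured there.

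Plpp1, a phosphatase of the same family with overlapping substrates, had intensities of 9178, 12909 and 13508 on the Tmem161a-KO arrays, and 16309, 19690.4 and 15691 on the WT arrays. The groups did not overlap, and Tmem161a-KO replicate 1 was the lowest of the 6 arrays. The log2 fold change was -0.55 (standard error 0.15), or 1.47-fold lower in Tmem161a-KO cells. Plpp1 kept its call in 11 of 17 alternative settings. The call was lost when Tmem161a-KO replicate 1 (log2 fold change -0.38), WT replicate 1 (-0.59) or WT replicate 2 (-0.45) was left out. It was also lost with an offset of 50 added to the intensities (-0.55), and under the methods' t-test, adjusted or not.

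Plpp2, the remaining phosphatase of the group, had intensities of 7250, 6981 and 7402 on the Tmem161a-KO arrays, and 9260, 7999 and 8003 on the WT arrays. Every Tmem161a-KO array was below every WT array, but the distance was small. The log2 fold change of -0.22 (standard error 0.11) was not called, and its 95% confidence interval ran from -0.46 to 0.02.

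The 3 phosphatases were thus all lower in Tmem161a-KO cells by their estimates, but to unequal degrees. Within each array, the log2 intensity of Plpp3 minus that of Plpp1 lay between -3.43 and -2.65 in Tmem161a-KO cells and between -0.97 and -0.71 in WT cells. The change in this distance was -2.14, so Plpp3 was lowered 4.40-fold more than Plpp1. Relative to Plpp2 the change was -2.47. For Plpp1 relative to Plpp2 the change was -0.33, and the distances overlapped, at 0.34 to 0.89 in Tmem161a-KO cells and 0.82 to 1.30 in WT cells. These distances compare changes and not the amounts of the transcripts, since different probes cannot be set against each other in level.

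The 250 bases before the annotated start are shown for Plpp3 and Lpar4, which had the lowest and the highest log2 fold change of the genes, and for Plpp2, a phosphatase that was not called. They were taken from RefSeq (GRCm38.p6), which gave a promoter for 8 of the 10 genes. Capitals mark matches on either strand to any of 6 motifs. The general promoter elements searched were the TATA box, spelled TATAAA, the CCAAT box, spelled by its name, and the GC box, spelled GGGCGG. The motifs of single factor families were that of TEAD, the partner of YAP, which is spelled GGAATG, that of AP-1, which is spelled TGANTCA, and the CArG box of SRF. In Lpar4 a CCAAT box and the GC box share bases. The sequences are those of Plpp3 at chr4:105157097-105157346 on the + strand, Plpp2 at chr10:79533788-79534037 on the - strand and Lpar4 at chrX:106920375-106920624 on the + strand, 5′ to 3′.
Plpp3: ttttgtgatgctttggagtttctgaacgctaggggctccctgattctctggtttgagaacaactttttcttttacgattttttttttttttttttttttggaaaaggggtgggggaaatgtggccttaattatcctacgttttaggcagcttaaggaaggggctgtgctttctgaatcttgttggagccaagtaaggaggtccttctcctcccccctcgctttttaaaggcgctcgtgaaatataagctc
Plpp2: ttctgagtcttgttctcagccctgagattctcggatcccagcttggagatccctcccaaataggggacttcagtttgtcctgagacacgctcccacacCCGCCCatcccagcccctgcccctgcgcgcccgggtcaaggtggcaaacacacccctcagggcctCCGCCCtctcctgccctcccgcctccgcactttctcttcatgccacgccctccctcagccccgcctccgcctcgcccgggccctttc
Lpar4: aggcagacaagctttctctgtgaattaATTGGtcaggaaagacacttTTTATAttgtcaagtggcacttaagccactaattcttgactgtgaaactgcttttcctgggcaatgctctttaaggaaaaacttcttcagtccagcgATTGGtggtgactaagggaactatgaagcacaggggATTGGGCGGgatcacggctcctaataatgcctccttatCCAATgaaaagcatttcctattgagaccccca

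The Plpp3 sequence held none of the 6 motifs and was 42.4% G and C, with 6 CG dinucleotides. The Plpp2 sequence was 65.6% G and C, with 14 CG dinucleotides and a GC box at 2 places. The Lpar4 sequence was 43.6% G and C, with 3 CG dinucleotides, and held a TATA box, a CCAAT box at 4 places and a GC box at 1. Over 32851 promoters of this length the median G and C content was 52.4%. Of these promoters, 12.4% held the TATA box, 33.8% the CCAAT box, 32.7% the GC box, 12.6% the TEAD motif, 6.75% the AP-1 motif and 1.47% the CArG box. The TEAD motif and the CArG box were in none of the 8 promoters found. A match says only that the letters are in the window.

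Lpar4, an LPA receptor related to the P2Y receptors rather than to Lpar1, Lpar2 and Lpar3, was the only 1 of the 9 genes called higher. Its intensity was 1091, 1856 and 1459 on the Tmem161a-KO arrays, and 846, 875 and 784 on the WT arrays. All Tmem161a-KO arrays were above all WT arrays, and they were also more spread out. The mean was 1468 ± 382 in Tmem161a-KO cells and 835 ± 46.5 in WT cells (SD, n = 3 each). The log2 fold change was 0.78 (standard error 0.16), or 1.72-fold, and it lay between 0.60 and 0.98 when 1 array was left out.

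Lpar1, the LPA receptor of widest known expression, had intensities of 5087, 7333 and 6833 on the Tmem161a-KO arrays, and 5880, 5940 and 5502 on the WT arrays. The groups overlapped, because Tmem161a-KO replicate 1 was below all WT arrays and the other Tmem161a-KO arrays were above them. The log2 fold change of 0.14 (standard error 0.14) was not called, with a 95% confidence interval of -0.16 to 0.43. Lpar2, which like Lpar1 belongs to the EDG receptors, had 313, 305 and 244 on the Tmem161a-KO arrays, and 257, 252 and 187 on the WT arrays. The groups overlapped through 1 Tmem161a-KO array, and the log2 fold change of 0.32 (standard error 0.14, interval 0.01 to 0.62) was not called after adjustment over all gene rows. Lpar3 was below background on all 6 arrays, at 50.1 to 63.3 in Tmem161a-KO cells and 52.9 to 56.6 in WT cells, so no change of it could be measured here.

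S1pr2, an S1P receptor that acts mainly through the G12/13 proteins, had intensities of 887, 737 and 621 on the Tmem161a-KO arrays, and 691, 814 and 795 on the WT arrays. The WT arrays lay within the range of the Tmem161a-KO arrays. The log2 fold change of -0.05 (standard error 0.14) was not called, and its interval of -0.34 to 0.24 leaves room for a small change in either direction. S1pr3 was at 125, 92.2 and 83.0 on the Tmem161a-KO arrays, and at 98.7, 90.7 and 97.6 on the WT arrays, that is, at or below the background level on all but 1 array. Its log2 fold change was 0.04 (standard error 0.14).

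**Figure D2:**
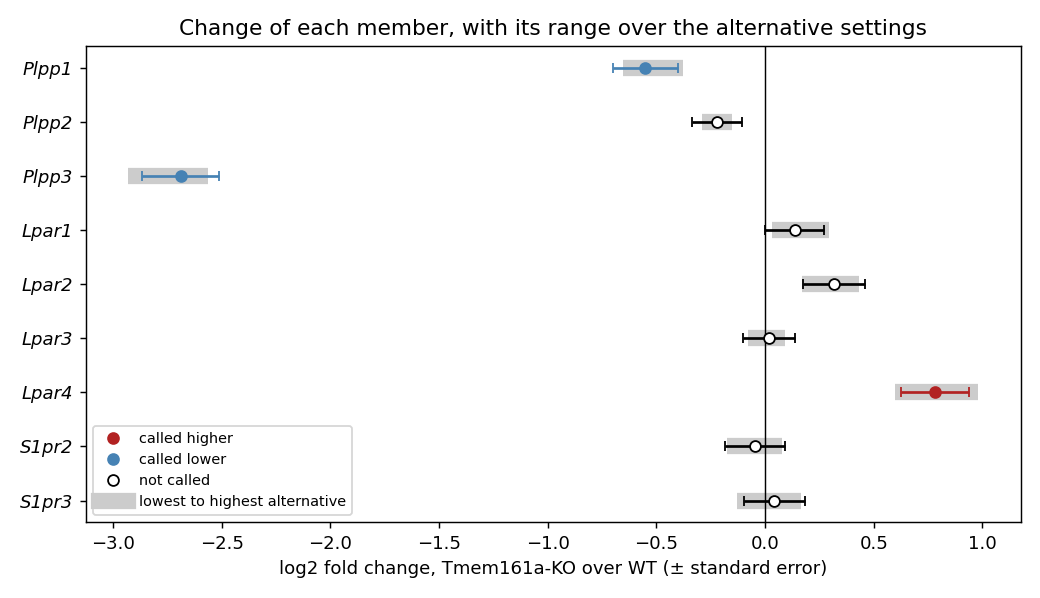
Log2 fold change of Tmem161a-KO over WT (horizontal axis) of the 9 measured genes. Points and bars are estimate ± standard error, coloured where called, and grey bars run from the lowest to the highest value over up to 17 alternative settings. Plpp3 ran from -2.93 to -2.56 and Lpar4 from 0.60 to 0.98, whereas the bars of Lpar3, S1pr2 and S1pr3 crossed 0.

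The Tmem161a-KO arrays differed among themselves in these genes. Tmem161a-KO replicate 2 was the highest of its group in Plpp3, Lpar1 and Lpar4, and replicate 1 was the lowest of its group in Plpp1, Plpp3, Lpar1 and Lpar4 and the highest in Lpar2, Lpar3, S1pr2 and S1pr3. Over the 6 arrays, the Pearson correlation of log2 intensity with Plpp3 was 0.85 for Plpp1, 0.80 for Plpp2 and -0.77 for Lpar4. The arrays form 2 groups, so that these values mainly restate the group difference.

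By the same measure, over 9785 rows brighter than the median row, the genes most like Plpp3 were Rassf2 (r = 0.999), Zc2hc1a (0.998), Zbtb7c (0.997), 2310033P09Rik (0.997) and Cebpd (0.996). Rassf2 had intensities of 957 ± 224 in Tmem161a-KO cells and 5141 ± 583 in WT cells (SD, n = 3 each), a log2 fold change of -2.44 that is close in size to that of Plpp3. The genes most opposite to Plpp3 were Chd8 (r = -0.998), Pdhb (-0.997), Selenos (-0.997), Mcam (-0.997) and Pcdhb15 (-0.997). Chd8 and Pdhb lie on chromosome 14, where 227 of 689 gene rows were called higher. Over 6 arrays in 2 groups these correlations, too, mainly restate the group difference, and they are given without a test.

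**Figure D3:**
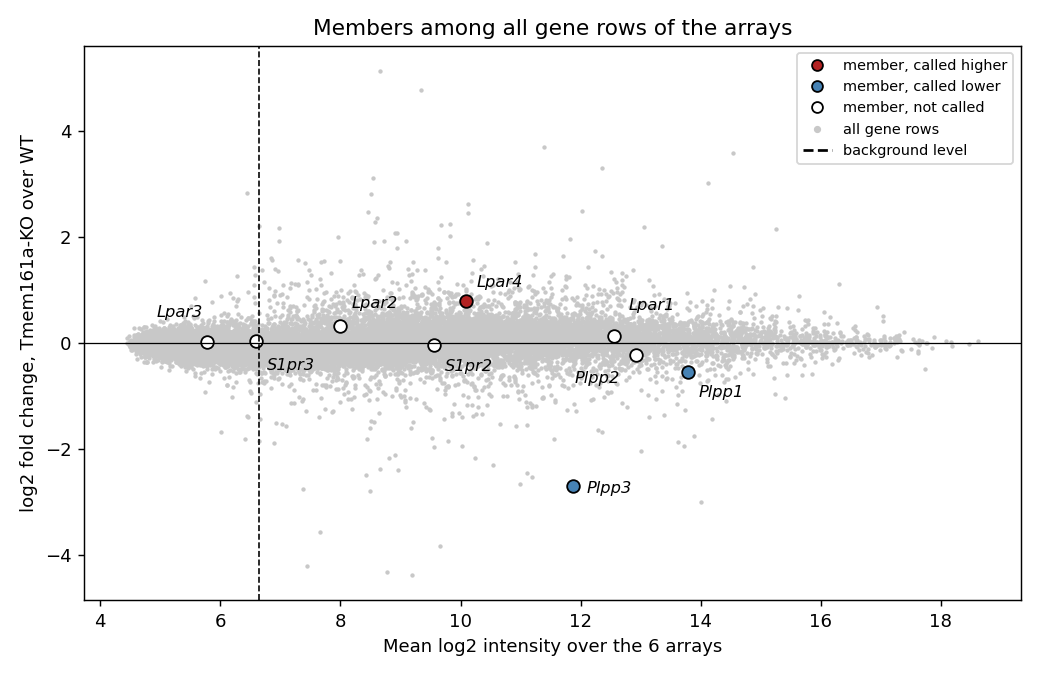
Log2 fold change of Tmem161a-KO over WT (vertical axis) against mean log2 intensity over the 6 arrays (horizontal axis) for 19571 gene rows (grey), with the 9 genes marked and named. The dashed line is the background level. Plpp3, at -2.69, lies well below the cloud of rows of like brightness, Lpar4 (0.78) lies in its upper part, and Lpar3 and S1pr3 lie below background.

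The other genes of LPA and S1P metabolism and signaling were followed in 8 lists. Of 127 measured genes, 13 rose and 5 fell, together 14.2%, against 9.91% of all gene rows and 14.3% of the gene rows above background in either group. Their median log2 fold change was 0.08. Of the 13 genes that rose, 4 lie on chromosome 14, where 227 of 689 gene rows were called higher. With the rows of chromosomes 14 and 17 left out, 7 of 113 genes were called higher and 5 lower (10.6%), where 8.47% of all remaining rows were called. For the remaining rows above background alone, this share was not computed. The part of these chromosomes in the values was not tested.

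Among 14 relatives of the phosphatases, only Plppr2 was called (7.14%, against 9.91% of all gene rows and 14.3% of those above background). Plppr2 belongs to a branch of the family that lacks the conserved catalytic residues. Its intensity was 360, 192 and 215 on the Tmem161a-KO arrays, and 49.0, 78.6 and 71.0 on the WT arrays, where it was below background. It rose by 1.92 on the log2 scale (adjusted p = 2.19e-05 from limma, standard error 0.21), and measured against the background level the rise was at least 2.46-fold. The S1P phosphatase genes Sgpp1 (-0.07) and Sgpp2 (-0.19), the lipin genes and the phosphatase genes Plpp5 (0.07), Plpp6 (-0.07) and Plpp7 (-0.23) did not pass the test. Plpp4 was below background in both groups. The 4 measured relatives of autotaxin (Enpp3, Enpp4, Enpp5 and Enpp6) were also below background in both groups.

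Among 11 enzymes that make LPA or its precursors, Pla2g6, a phospholipase A2, rose and Pld2, a phospholipase D, fell. These 2 were 18.2% of the list, against 9.91% of all gene rows and 14.3% of those above background. Their log2 fold changes were 0.45 for Pla2g6 (adjusted p = 0.0497) and -0.39 for Pld2 (adjusted p = 0.0380, both from limma), and the calls were kept in only 6 and 10 of 17 alternatives. Of the arrays left out singly, Tmem161a-KO replicate 3 and WT replicate 3 alone left Pla2g6 called (range 0.34 to 0.56), and Tmem161a-KO replicate 1 alone left Pld2 called (range -0.44 to -0.35). Among 10 enzymes that use up LPA, Agpat3, which acylates LPA to phosphatidic acid, fell to 10526 ± 493 in Tmem161a-KO cells, against 16349 ± 775 in WT cells (SD, n = 3 each). On the log2 scale the change was -0.64 (limma, adjusted p = 0.00135, standard error 0.11). Mboat2, an acyltransferase of lysophospholipids, was at 286 ± 15.8 in Tmem161a-KO cells and at 102 ± 15.9 in WT cells (SD, n = 3 each), where it was close to the background level. It rose by 1.50 on the log2 scale (limma, adjusted p = 1.79e-06). Agpat3 and Mboat2 were 20.0% of their list, against 9.91% of all gene rows and 14.3% of those above background.

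Of 29 genes of S1P and ceramide metabolism, 3 rose and 1 fell, together 13.8%, against 9.91% of all gene rows and 14.3% of those above background. Spns2, which carries S1P out of the cell, had an intensity of 437 ± 107 in Tmem161a-KO cells and 222 ± 33.3 in WT cells (SD, n = 3 each), higher by 0.96 on the log2 scale (limma, adjusted p = 0.000884). The enzymes that make and cleave S1P itself did not pass, with log2 fold changes of -0.06 for Sphk1, 0.21 for Sphk2 and 0.00 for the lyase gene Sgpl1. Ugcg, which forms glucosylceramide from ceramide, rose by 1.34 (adjusted p = 8.5e-05). Cers6, a ceramide synthase gene, rose by 0.42 (adjusted p = 0.0470), and of the arrays left out singly only WT replicate 3 left it called (range 0.32 to 0.50). Sgms2, which forms sphingomyelin from ceramide, fell by 0.91 on the log2 scale (adjusted p = 0.000764).

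Of 7 further receptors of lysophospholipids, 1 was called (14.3%, against 9.91% of all gene rows and 14.3% of those above background). This was Lpar6, which like Lpar4 is related to the P2Y receptors. Its intensity was 392, 414 and 517 on the Tmem161a-KO arrays, and 204, 207 and 206 on the WT arrays, higher by 1.09 on the log2 scale (limma, adjusted p = 3.42e-05). Lpar6 is 1 of the genes on chromosome 14. S1pr1, the S1P receptor coupled to Gi, had 5222, 3872 and 3250 on the Tmem161a-KO arrays, and 7257, 5383 and 4472 on the WT arrays. The groups overlapped, and the difference of -0.47 on the log2 scale (limma, adjusted p = 0.121) did not pass. S1pr4 was not called at 0.03, and S1pr5, P2ry10, Gpr174 and Gpr34 were below background in both groups.

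Of 22 G proteins and relays of RhoA, 2 were called (9.09%, against 9.91% of all gene rows and 14.3% of those above background), and both fell. Mrtfa, a coactivator of SRF that responds to RhoA, had 1822 ± 244 in Tmem161a-KO cells and 2749 ± 115 in WT cells (SD, n = 3 each), which is -0.60 on the log2 scale (limma, adjusted p = 0.00488). Gnai1, a Gi subunit gene, was called lower (adjusted p = 0.0302) and was below background in Tmem161a-KO cells, so that its fall was at least 1.23-fold. It was called only without Tmem161a-KO replicate 3 or WT replicate 2 among the arrays left out singly (log2 fold changes of -0.57 to -0.39). The genes of G12/13 (-0.08 for Gna12, 0.21 for Gna13), of RhoA (-0.04) and of YAP (0.33 for Yap1) did not pass. Of 30 target genes of YAP/TAZ and SRF, transcriptional regulators on which receptors of LPA and S1P are known to act through RhoA, 6 were called, all of them higher, and 24 did not pass, with a median of 0.16. This was 20.0% of the list, against 9.91% of all gene rows and 14.3% of those above background. With chromosomes 14 and 17 left out it was 3 of 26 genes (11.5%), against 8.47% of all remaining rows, those below background included. The largest was Ccn2, a matricellular protein gene, at 83105 ± 13716 in Tmem161a-KO cells and 20446 ± 10726 in WT cells (SD, n = 3 each), which is 2.14 on the log2 scale (limma, adjusted p = 4.73e-05). Ccn2 was 82271, 97219 and 69825 on the Tmem161a-KO arrays, and 12053, 16755 and 32530 on the WT arrays. WT replicate 3 thus stood above the other WT arrays, as it did in Fhl1. It also did so in several genes that did not pass, such as Tagln, Zyx, Myl9 and Tpm2, but not in Ajuba or Lats2. Without WT replicate 3 the log2 fold change was 2.53 for Ccn2 and 1.06 for Fhl1. Then 18 rather than 13 pathway genes were called higher and 3 rather than 5 lower. Over all gene rows, 962 rather than 1122 were called higher. Fhl1 rose by 0.81 and Dlc1 by 0.52, the call of Dlc1 being lost without Tmem161a-KO replicate 2, Tmem161a-KO replicate 3 or WT replicate 1 (range 0.37 to 0.60). The others, Lats2 (1.03), Vcl (0.81) and Ajuba (0.77), all lie on chromosome 14. Among the genes that did not pass, log2 fold changes were 0.09 for Ccn1, 0.04 for Ankrd1, 0.12 for Acta2 and 0.39 for Tagln. The groups did not overlap in Amotl1 (0.47), Fhl2 (0.48), Foxf2 (0.31), Amotl2 (-0.36) and Axl (-0.25), which did not pass either. Over all gene rows, 28.9% showed no overlap.

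**Figure D4:**
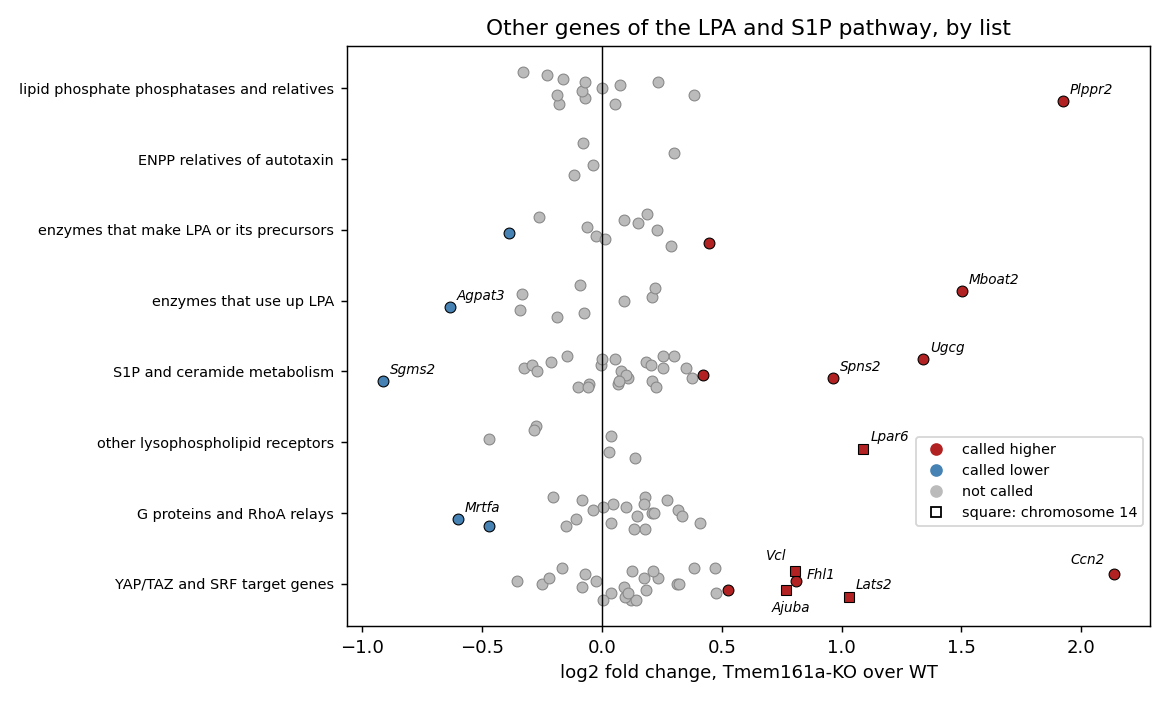
Log2 fold change of Tmem161a-KO over WT (horizontal axis) for 127 measured genes of 8 lists (rows). Red genes were called higher, blue genes lower and grey genes were not called, and squares lie on chromosome 14. Called genes past 0.6 in size are named, with Ccn2 at 2.14 and Plppr2 at 1.92 farthest to the right and Sgms2 at -0.91 farthest to the left.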

How the data were processed

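Gene expression was measured on Clariom S mouse arrays in 3 Tmem161a-KO and 3 WT samples of MC3T3-e1 cells. The deposited table holds, for each array, intensities that the authors normalized in GeneSpring, on a linear scale. Background correction and probe summarization, not given in the sources used here, may affect dim genes most. Precision is limited by the number of arrays.

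Intensities were put on the log2 scale with no pseudocount and fitted, without covariates, by lmFit and eBayes of limma 3.58.1 (R 4.3.3), with Benjamini-Hochberg adjustment over all gene rows. Of 22205 rows, 19571 carried 1 gene symbol of the platform annotation and 2634 carried none and were left out. For the genes of the lists, the brightest row of a symbol was used. The genes most like and most opposite to Plpp3 were the 5 of highest and the 5 of lowest Pearson r among rows above the median intensity. The fit was tested on simulated data. The genes and lists were chosen with earlier results of these data known. Of the lists, called genes were named, up to 4 of a list by size, whereas Ajuba, Dlc1 and the genes of these lists given as not called were named after their values had been seen. No permutation test was run, because with 3 arrays a group its smallest exact two-sided p is 0.1. The 17 alternatives are given with their effect in the closing section, and a limma threshold on the unadjusted p was added to them after the data had been seen.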

Additional observations from a re-analysis of the deposited data

How the results depend on the processing

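Some of the 17 alternatives change only the test or the rows fitted, so the fold change of a gene cannot move in them. Plpp3 and Lpar4 kept their direction in all 17 alternatives and their call in 16, the exception being the methods' t-test with Benjamini-Hochberg adjustment. Under that test no member was called (0 higher, 0 lower), 1 other pathway gene was higher and 1 lower, and over all rows 114 were higher and 76 lower. Unadjusted, it gave 2038 and 1878 over all rows and 18 higher and 8 lower pathway genes, and its 2 lower members were Plpp3 and Plpp2. Limma at an unadjusted p under 0.05 gave 2453 higher and 2325 lower rows, 2 higher members and 27 higher and 14 lower pathway genes. With an offset of 50, 1 member (Plpp3) was lower. After median centring of the arrays, 16 pathway genes were higher and 3 lower, and without the rows of chromosomes 14 and 17, 7 were higher. Centring moved the share of higher calls to 72.5%, from 57.9%. With 1 array left out, 729 to 965 rows were higher and 497 to 703 lower, 1 or 2 members were lower and 11 to 18 pathway genes were higher (18 without WT replicate 3) and 3 to 5 lower. The counts were lowest without WT replicate 1 (740 and 515) and WT replicate 2 (729 and 497). Lpar3, S1pr2 and S1pr3, which were not called in any alternative, changed sign when single arrays were left out, and S1pr2 also after median centring. The replicate number as a block gave 1198 higher and 853 lower rows and 14 and 6 pathway genes. The deviations of arrays with the same number correlated at 0.02 to 0.09. These values are low, but they do not settle whether the numbers pair the samples.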
